A study of Homo sapiens with 47 samples.

Results

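The expression of 10 imprinted growth genes is described here in human pluripotent cells and the progenitors made from them. The members, *H19*, *IGF2*, *MEG3*, *DLK1*, *PEG3*, *PEG10*, *NNAT*, *MEST*, *GRB10* and *PLAGL1*, were taken by name from the 58051 genes that each library lists, through the Ensembl identifiers of the files. mRNA was sequenced from H9 (WA09), an established human embryonic stem cell line, in 47 libraries, of which 35 were whole cultures and 12 were fractions. Whole cultures were undifferentiated cells (t0), neuromesodermal progenitor (NMP)-like cells after 36 h (36h), and passages P1 to P10 of cultures labelled as pre-neural progenitor (PNP) and neural crest (NC) cells, with 3 independent differentiations (r1, r2 and r3) per time point and 2 at P9 (r1 and r2). Cells at t0 were grown in mTESR1, and all later cells were kept in N2B27 medium lacking vitamin A with CHIR-99021 (a WNT pathway activator), rhFGF2, AGN193109 (an inverse agonist of retinoic acid receptors) and Y-27632 (a ROCK inhibitor). At P5 and P8 epithelial (EPI) and mesenchymal (MES) cells were enriched by selective detachment with TrypLE, with 3 libraries each, so a fraction is enriched rather than pure. The libraries of a differentiation are successive samples of 1 culture of 1 line, and a change in the level of a gene in bulk RNA cannot be told apart from a change in the share of cells that express it.

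An imprinted gene is transcribed mainly from the copy inherited from the mother or mainly from the copy inherited from the father, under the control of DNA methylation laid down in the germline and kept after fertilization. Many imprinted genes act on fetal and placental growth, and several of them, such as *IGF2* and *H19* or *DLK1* and *MEG3*, lie in pairs whose members are expressed from opposite parental copies. The expected counts here join both copies, so the parental origin of a transcript was not measured.

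The libraries held between 13029491 and 64082859 expected counts, the median library 47292229. The pluripotency markers (*POU5F1*, *NANOG* and *EPHA1*) summed to between 1762 and 1972 TPM (transcripts scaled to a common total per library) at t0. Differentiation r1 stood apart from r2 and r3 at P1, where this sum was 909 TPM in r1, 20.5 TPM in r2 and 6.00 TPM in r3. Markers of paraxial mesoderm summed to between 7.11 and 9.45 TPM at t0. They were at 7.57, 363 and 359 TPM at P1 in r1, r2 and r3, at 305, 67.0 and 83.2 TPM at P2 and at 233, 12.8 and 25.0 TPM at P3, so several of these early cultures were by their markers not made up of PNP and NC cells alone. The sum over the epithelial PNP markers (*SOX2*, *CDX2* and *NKX1-2*) ran from 158 to 741 TPM over P5 to P8, but was 14.4 and 15.3 TPM in the P9 libraries of r1 and r2. At P10 it was 421 TPM in r1, 4.10 TPM in r2 and 3.04 TPM in r3. Markers of neural crest and mesenchymal cells were *SNAI1*, *SNAI2*, *SOX9*, *SOX10*, *TFAP2B*, *TWIST1* and *ETS1*. They summed to between 488 and 645 TPM in the MES fraction at P5 and to between 83.3 and 284 TPM in the EPI fraction. At P8 the ranges of the fractions overlapped in these markers, with 327 to 1127 TPM in MES and 109 to 803 TPM in EPI. They also overlapped in the epithelial markers, with 49.7 to 441 TPM in MES and 182 to 639 TPM in EPI. Within every differentiation (r1, r2 and r3) MES held the higher crest sum, at 327, 520 and 1127 against 109, 451 and 803 TPM. It held the lower epithelial sum, at 441, 177 and 49.7 against 639, 269 and 182 TPM. In the EPI fractions of P8 the neural crest and mesenchymal sum was above the epithelial sum in r2 (451 against 269 TPM) and r3 (803 against 182 TPM). The sums run over 7 and 3 markers, so the larger of them does not tell which cell type prevails.

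The members spanned a wide range of levels. By TPM, which allows genes of different length to be compared, *MEST*, *PEG10*, *NNAT* and *GRB10* had medians over the 47 libraries of 275, 295, 119 and 75.6, and *PLAGL1* and *IGF2* had medians of 36.1 and 18.7. *H19* had a median of 9.18 TPM, *PEG3* of 0.72 TPM, *DLK1* of 0.11 TPM and *MEG3* of 0. *MEST* ran from 161 to 7285 TPM, whereas *PEG10*, at a similar median, ran from 127 to 599 TPM. With the 16 groups ordered by mean TPM, the ranges of neighboring groups overlapped at all 15 steps of the order for *H19*, *IGF2*, *MEG3*, *PEG3*, *NNAT* and *GRB10*. They were apart at 1 step for *DLK1* (P1 above P2), *PEG10* (P2 above 36h) and *MEST* (the MES fraction of P8 above its EPI fraction), and at 2 steps for *PLAGL1* (P9 above 36h, and 36h above t0). P9 has 2 libraries. Such steps were not counted over all genes, so these counts cannot be read as a trait of the members.

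**Figure D1:**
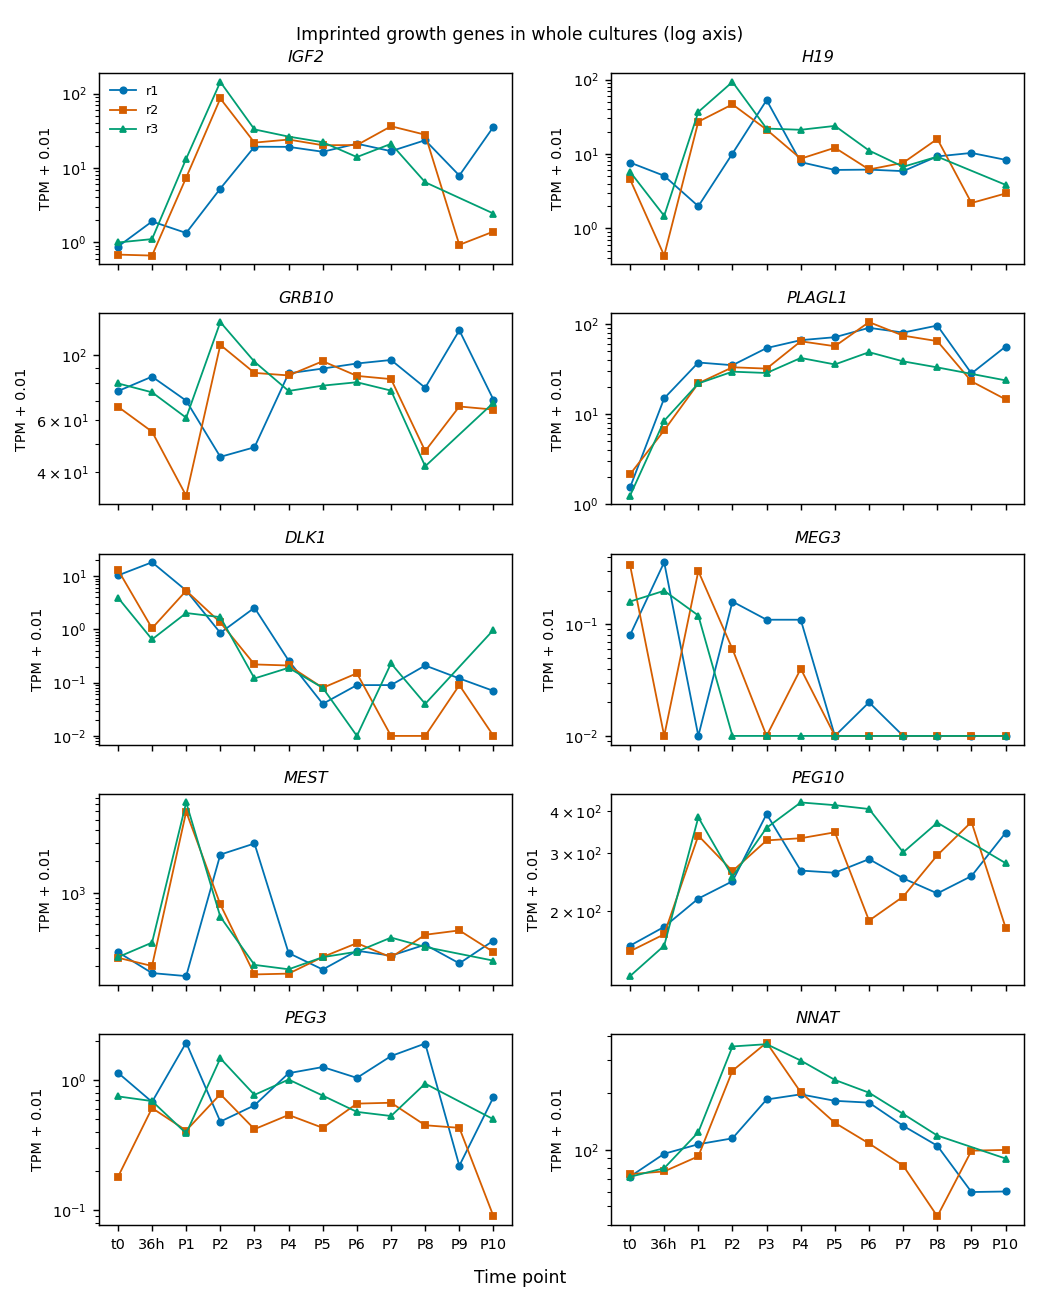
Level of each member in whole cultures, as TPM + 0.01 on a log axis, against time point, with 1 line for each differentiation (r1, r2 and r3). *MEST* reaches 5949 and 7285 TPM at P1 in r2 and r3 and 2960 TPM at P3 in r1, and *PLAGL1* rises from between 1.22 and 2.12 TPM at t0.

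Whole cultures were compared at 5 steps (t0 to 36h, 36h to P1, P1 to P5, P5 to P8 and P8 to P10) by the quasi-likelihood test of edgeR, with differentiations as blocks, and a gene was called when its Benjamini-Hochberg adjusted p was below 1%, its fold change at least 2 and its mean at least 100 normalized counts over the libraries compared. P2, P3, P4, P6, P7 and P9 entered the fit but no comparison, so their levels are given as a description. All 10 members passed the filter on low counts in whole cultures. From t0 to 36h, 1 of the 10 members was called (*PLAGL1*, higher), where 2.71% of the 21750 genes tested were called. From 36h to P1, 2 of 10 were called (*MEST* and *PLAGL1*, both higher), against 1.19% of all genes. From P1 to P5, 2 of 10 were called (*DLK1* and *MEST*, both lower), against 4.00% of all genes. With single differentiations left out, the call of *DLK1* was lost without any 1 of the 3, and those of *MEST* at both steps and of *PLAGL1* from 36h to P1 were lost without r2 or r3. Over all genes the share called from 36h to P1 was then 4.25%, 0.00888% and 0.0568% without r1, r2 and r3. For P1 to P5 it was 5.48%, 0.466% and 0.507%. From P5 to P8, edgeR called 0 of 10, against 0.00920% of all genes, with 2 members and 13.3% of all genes at an unadjusted p under 0.05, and DESeq2 and limma called 0. From P8 to P10, edgeR called 0 of 10, against 0.0874% of all genes, with 2 members and 16.4% of all genes at an unadjusted p under 0.05, and DESeq2 and limma called 0. The median log2 fold change of the members was -0.10 from t0 to 36h, 0.93 from 36h to P1, 0.32 from P1 to P5, 0.02 from P5 to P8 and -0.15 from P8 to P10, and the median over all genes tested stayed between -0.01 and 0.00.

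*IGF2* encodes insulin-like growth factor 2, a secreted peptide that drives fetal growth through the IGF1 and insulin receptors. The gene lies at chr11:2129112-2149603 on the minus strand (GRCh38, GENCODE 29). *IGF2* was at 0.86, 0.67 and 0.98 TPM at t0 in r1, r2 and r3, and at 1.89, 0.65 and 1.09 TPM at 36h. At P1 it was at 1.32, 7.40 and 13.3 TPM, and at P2 at 5.26, 86.1 and 144 TPM. In r2 and r3 the level at P2 was the highest of the time course, 121-fold and 158-fold over t0 by normalized counts, whereas r1 was highest at P10, 44.3-fold over t0. Over P3 to P7 *IGF2* then ran between 14.0 and 36.4 TPM in all 3 differentiations. From 36h to P1 the fitted log2 fold change was 2.88 (SE 1.05, with edgeR giving an adjusted p of 0.089), higher in 2 of 3 differentiations, which did not pass the test. Without r1 it was 3.77 with an adjusted p of 0.00091 in edgeR and was called, so the call depended on r1.

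Late *IGF2* levels differed between differentiations. At P8 *IGF2* was at 23.6, 28.0 and 6.40 TPM in r1, r2 and r3, and at P9 at 7.89 and 0.91 TPM in r1 and r2. At P10 it was at 35.8, 1.38 and 2.42 TPM, so the P10 library of r1 held the highest *IGF2* level of its own time course, whereas r2 and r3 were well below their levels at P5. The libraries with the low *IGF2* values at P9 and P10 were also those in which the epithelial PNP markers summed to between 3.04 and 15.3 TPM and the neural crest and mesenchymal markers to between 917 and 1120 TPM. At P8 these sums were 688 and 142 TPM in r1, 244 and 449 TPM in r2 and 158 and 774 TPM in r3. Of these, r2 held the highest *IGF2* level, with an epithelial sum below and a crest sum above those of r1. The P7 library of r3 had 21.1 TPM of *IGF2* with sums of 260 and 803 TPM. The part of these markers in the *IGF2* levels was not tested. *PLAGL1* was lower at P10 than at P8 in 3 of 3 differentiations, with 28.2 and 23.0 TPM at P9 and 56.1, 14.5 and 23.6 TPM at P10 against 96.1, 64.5 and 32.9 TPM at P8, and was not called from P8 to P10 (edgeR, log2 fold change -1.06, adjusted p = 0.059). From P8 to P10 the fitted log2 fold change of *IGF2* was -0.72 (SE 0.98, with edgeR giving an adjusted p of 0.77). Leaving out r1 gave -3.16 (edgeR, adjusted p = 0.0023), and leaving out r2 gave 0.28 (edgeR, adjusted p = 1), so the direction rested on single differentiations.

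**Figure D2:**
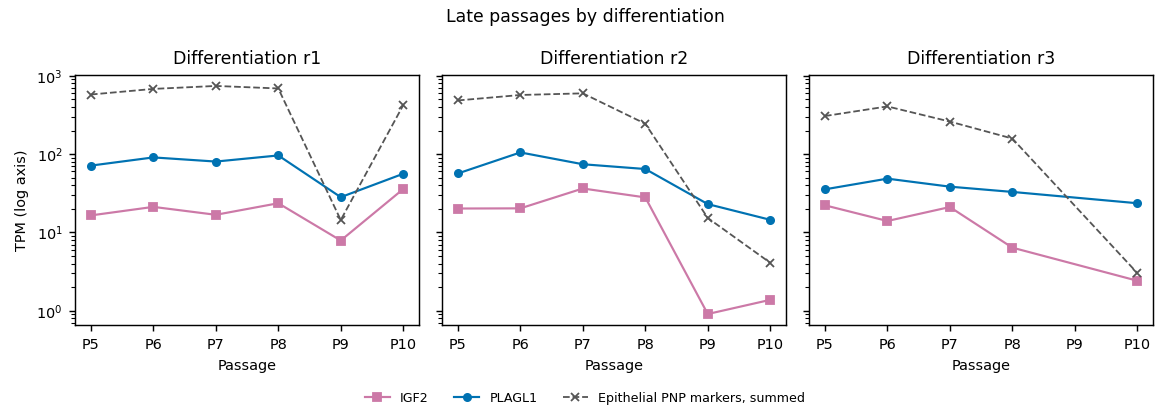
*IGF2*, *PLAGL1* and the summed epithelial PNP markers (*SOX2*, *CDX2* and *NKX1-2*, dashed) in whole cultures of P5 to P10, in TPM on a log axis, with 1 panel for each differentiation. All 3 lines drop at P9 in r1 and r2, and at P10 only r1 returns, to 35.8, 56.1 and 421 TPM.

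*H19*, the long non-coding RNA next to *IGF2*, is the host of miR-675 and lies at chr11:1995176-2001470 on the minus strand. Its 2 mature miRNAs (RefSeq, GRCh38.p14) lie at chr11:1996800-1996822 and chr11:1996768-1996787, inside *H19*, and are shown with the seed (bases 2 to 8) in capitals because their host is a member. The libraries were prepared from polyA RNA, so mature miRNAs were not measured.
hsa-miR-675-5p: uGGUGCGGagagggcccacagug
hsa-miR-675-3p: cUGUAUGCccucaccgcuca
*H19* was at 7.65, 4.55 and 5.75 TPM at t0 and at 5.07, 0.42 and 1.46 TPM at 36h, lower in 3 of 3 differentiations. This difference was not called (log2 fold change -1.47 with an SE of 0.85, edgeR adjusted p = 0.29), and without r1 it was, at -2.30 with an adjusted p of 0.0078 in edgeR. At P1 it was at 1.97, 27.1 and 36.7 TPM, at P2 at 10.1, 46.4 and 92.9 TPM, and at P3 at 52.9, 21.2 and 21.9 TPM. The highest value was at P2 in r2 and r3 and at P3 in r1, 12.1-fold, 20.1-fold and 9.67-fold over t0 by normalized counts. From P4 to P10 the values ran from 2.18 to 23.8 TPM. From 36h to P1 the log2 fold change was 3.64 (SE 0.92, with edgeR giving an adjusted p of 0.017), higher in 2 of 3 differentiations, which missed the 1% threshold. DESeq2 called the difference from 36h to P1, at 3.63 with an adjusted p of 0.00037, and edgeR without r1 called it at 5.16 with an adjusted p of 7.2e-05.

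*GRB10* encodes an adaptor protein that binds the insulin and IGF1 receptors and dampens their signaling, and lies at chr7:50590063-50793462 on the minus strand. It stayed between 33.3 and 129 TPM in all 47 libraries. *GRB10* was at 75.3, 66.7 and 80.0 TPM at t0, at 69.9, 33.3 and 61.2 TPM at P1 and at 45.1, 108 and 129 TPM at P2. At P2 the values of r2 and r3 were thus above those of r1, in the same libraries in which *IGF2* was high. From P5 to P8 *GRB10* went from 89.8, 95.1 and 78.6 TPM to 77.3, 47.2 and 41.9 TPM, lower in 3 of 3 differentiations. At P9 *GRB10* was at 121 and 66.8 TPM in r1 and r2, where *IGF2* was at 7.89 and 0.91 TPM. At P10 *GRB10* was at 70.4, 65.2 and 68.8 TPM, where *IGF2* was at 35.8, 1.38 and 2.42 TPM. The levels of *GRB10* and *IGF2* thus did not run in parallel throughout. At the 5 steps tested *GRB10* was not called by edgeR, where its smallest unadjusted p was 0.035 both from P1 to P5 and from P5 to P8, or by DESeq2 or limma.

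*PLAGL1* encodes a zinc finger transcription factor that is known to act on cell cycle arrest and on other imprinted genes, and lies at chr6:143940300-144064599 on the minus strand. *PLAGL1* was at 1.51, 2.12 and 1.22 TPM at t0, at 14.9, 6.56 and 8.38 TPM at 36h and at 37.3, 21.9 and 21.8 TPM at P1. The 3 stages did not overlap, and *PLAGL1* rose at both steps in every differentiation. From t0 to 36h it rose with a log2 fold change of 2.89 (SE 0.32, with edgeR giving an adjusted p of 1.9e-06), a 7.39-fold difference. From 36h to P1 its log2 fold change was 1.52 (SE 0.30, with edgeR giving an adjusted p of 0.0032), a 2.88-fold difference. The first call held in each of the 12 alternatives tried, whereas the second was lost without the block (edgeR, 1.53 with an adjusted p of 0.038) and without r2 (adjusted p = 0.12) or r3 (adjusted p = 0.083).

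*PLAGL1* went on to its highest level at P8 in r1 (96.1 TPM) and at P6 in r2 and r3 (105 and 48.6 TPM), 83.5-fold, 69.7-fold and 38.1-fold over t0 by normalized counts. From P1 to P5 it was higher in 3 of 3 differentiations, with a log2 fold change of 0.85 (SE 0.29, with edgeR giving an adjusted p of 0.048) that was not called. Of the 15 groups with 3 libraries, r1 was the highest in 13 and r3 the lowest in 13. The transcript length that RSEM reports, a mean weighted by the estimated share of each isoform, was 1763, 1526 and 2440 bases for *PLAGL1* at t0, from 64 to 97 expected counts a library, and between 2239 and 2787 bases over P2 to P10.

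Of the 10 members, 5 (*H19*, *MEG3*, *MEST*, *GRB10* and *PLAGL1*) had RefSeq promoter windows of 300 bases (250 before to 50 after a start, GRCh38.p14), with 19 windows in all. They were searched on both strands for TGCCGC, a hexamer that ZFP57, a zinc finger protein that keeps methylation at imprints, is known to bind. Of these 19 windows 9 held the hexamer, and of all 35116 windows of this length 16.7% did, but windows of a gene can overlap and share matches. With overlapping windows merged, 5 of 15 regions of members held it. The windows of all genes were not merged, so the 16.7% is no background for this count. Below are the windows of *MEST* and *PLAGL1*, the members called at more than 1 step, that held the most matches, since both genes start from several promoters. They lie at chr7:130491835-130492134 on the plus strand for *MEST* and at chr6:144008210-144008509 on the minus strand for *PLAGL1*, and the capitals mark the hexamer or its reverse complement. They hold 3 matches, of which a pair overlaps, and 2 matches, with 25 and 39 CpG dinucleotides against a median of 14 over all windows. A match of letters is a description and no evidence of binding, and methylation was not measured here.
MEST: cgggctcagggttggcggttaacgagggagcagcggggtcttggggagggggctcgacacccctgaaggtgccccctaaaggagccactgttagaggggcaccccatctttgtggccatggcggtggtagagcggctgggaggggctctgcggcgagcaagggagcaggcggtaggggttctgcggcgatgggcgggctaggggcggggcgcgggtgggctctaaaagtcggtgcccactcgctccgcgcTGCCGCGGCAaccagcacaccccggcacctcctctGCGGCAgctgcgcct
PLAGL1: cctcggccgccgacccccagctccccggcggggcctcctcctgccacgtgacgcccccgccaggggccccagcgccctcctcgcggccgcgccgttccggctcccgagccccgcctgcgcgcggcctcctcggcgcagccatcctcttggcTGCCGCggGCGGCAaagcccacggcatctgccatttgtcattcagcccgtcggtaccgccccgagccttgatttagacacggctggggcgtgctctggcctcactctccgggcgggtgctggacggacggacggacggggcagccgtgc

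*MEST*, whose product is a membrane protein of the alpha/beta hydrolase fold, is a marker of early mesoderm in the embryo and lies at chr7:130486171-130506465 on the plus strand. *MEST* was at 273, 241 and 244 TPM at t0 in r1, r2 and r3, and at 172, 201 and 336 TPM at 36h. At P1 it was at 161, 5949 and 7285 TPM, at P2 at 2319, 776 and 592 TPM, and at P3 at 2960, 167 and 206 TPM. The surge was thus seen in all 3 differentiations, at P1 in r2 and r3 and at P2 and P3 in r1, with peaks 26.4-fold, 32.6-fold and 11.7-fold over t0 by normalized counts. At P1 *MEST* ranked 9th and 8th of all genes by TPM in r2 and r3 and held 0.757% and 0.916% of all counts, against rank 1050 and 0.02% in r1. From P4 to P10 it ran from 170 to 439 TPM, a range that held the values of t0.

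The fit by time point pooled differentiations whose surges fell at different passages. From 36h to P1 *MEST* rose with a log2 fold change of 4.45 (SE 0.99, with edgeR giving an adjusted p of 0.0077), 21.9-fold, but within r1 the log2 ratio of normalized counts was 0.18 against 5.02 and 4.52 in r2 and r3. From P1 to P5 *MEST* fell, with a log2 fold change of -4.52 (SE 1.00, with edgeR giving an adjusted p of 0.0031), with 0.09 in r1 against -4.81 and -5.05 in r2 and r3. Without r1 the 2 values were 4.74 (adjusted p = 4.1e-06) and -4.91 (adjusted p = 1.1e-06) in edgeR. Both calls were lost in edgeR without r2, at adjusted p of 0.29 and 0.12, and without r3, at 0.14 and 0.097. With limma on log2(TPM + 1) neither passed the 1% threshold (3.07 with an adjusted p of 0.046, and -3.09 with 0.032).

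Markers of paraxial mesoderm were also high at the passages of the surge. The sum over *TBX6*, *MSGN1*, *MEOX1* and *TCF15*, given above, was high in r1 at P2 and P3, where *MEST* was high in r1, and at P1 in r2 and r3, where *MEST* was high in those. The 2 did not run in parallel throughout. In r3 the sum was highest at 36h, at 631 TPM, where *MEST* was at 336 TPM, and in r2 it was 132 TPM at 36h with *MEST* at 201 TPM, against 67.0 TPM at P2 with *MEST* at 776 TPM. From P5 on it stayed at or below 13.2 TPM in whole cultures and fractions. The part of mesoderm markers in the *MEST* surge was not tested.

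**Figure D3:**
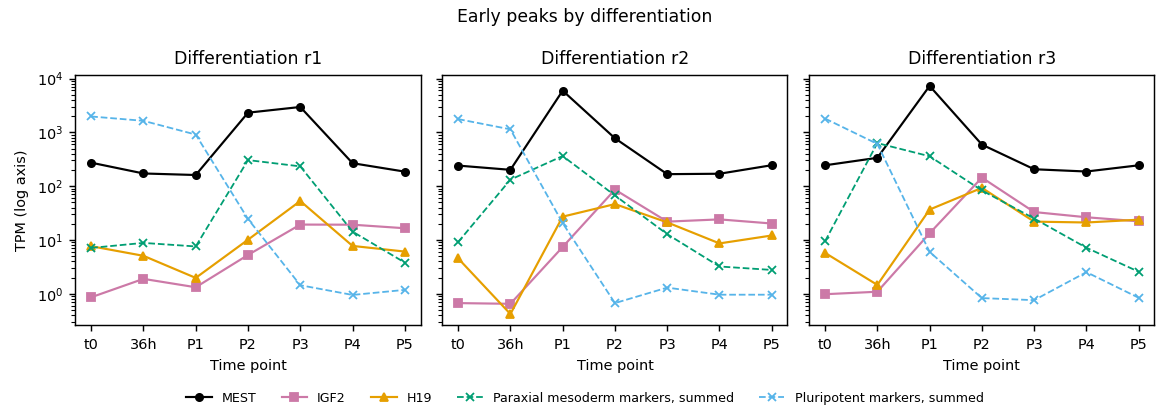
*MEST*, *IGF2* and *H19* (solid) with the summed markers of paraxial mesoderm and of pluripotent cells (dashed) from t0 to P5, in TPM on a log axis, with 1 panel for each differentiation. *MEST* peaks at P3 in r1 and at P1 in r2 and r3, and the pluripotent sum is still 909 TPM at P1 in r1.

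The mature arms of miR-335, which lies within *MEST* at chr7:130496126-130496148 (5p) and chr7:130496162-130496183 (3p) on the plus strand, are printed because of the surge of their host. They come from RefSeq (GRCh38.p14), carry the seed in capitals and share no seed with each other or with the arms of miR-675. Their own levels were not measured.
hsa-miR-335-5p: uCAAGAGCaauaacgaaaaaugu
hsa-miR-335-3p: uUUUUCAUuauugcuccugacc
The RSEM transcript length of *MEST* was 2019, 2030 and 2046 bases at t0 and between 2088 and 2294 bases over P2 to P10, ranges that did not overlap. The antisense *MESTIT1* stayed between 0.04 and 0.59 TPM, and *COPG2*, which overlaps *MEST*, between 31.8 and 69.2 TPM.

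*DLK1* encodes a transmembrane protein with EGF-like repeats that acts on Notch signaling and is known from precursor cells, and lies at chr14:100725705-100738224 on the plus strand. *DLK1* was at 10.3, 13.2 and 3.95 TPM at t0, at 18.2, 1.04 and 0.64 TPM at 36h and at 5.36, 5.32 and 2.02 TPM at P1. At P2 it was at 0.85, 1.34 and 1.69 TPM, at P3 at 2.54, 0.21 and 0.11 TPM, at P4 at 0.25, 0.20 and 0.18 TPM and at P5 at 0.03, 0.07 and 0.07 TPM. *DLK1* was thus at or below 0.25 TPM by P4 in every differentiation, in r1 after a higher level at P3 than at P2, and it was lower at 36h than at t0 in r2 and r3 but not in r1. At P5 every library held 3 counts or fewer, 7 in all against 480 at P1, a ratio of 79.9 from P1 to P5 per total count with an exact 95% interval of 38.5 to 200 that covers counting error only. The fall from P1 to P5 was called by edgeR with an adjusted p of 0.0043, lower in 3 of 3 differentiations. In edgeR the call was lost without r2, at an adjusted p of 0.092, without r3, at 0.023, and without r1, where the adjusted p was 0.0071 but the mean did not reach 100 normalized counts.

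After P5 *DLK1* stayed at or below 0.22 TPM in whole cultures, except for 0.97 TPM in the P10 library of r3, and at or below 0.12 TPM in the fractions. *MEG3*, the long non-coding RNA downstream of it at chr14:100779410-100861031 on the plus strand, had at most 16 expected counts in a library. It was at 0.07, 0.33 and 0.15 TPM at t0, at 0.35, 0 and 0.19 TPM at 36h and at 0, 0.29 and 0.11 TPM at P1. Of the 47 libraries 38 held 3 counts or fewer of *MEG3*, and from P5 on it was listed at 0 in all libraries but 1. *MEG8* and *RTL1*, further genes of this domain, reached at most 0.39 and 0.10 TPM. At these counts no fold change is given for *MEG3*.

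*PEG10*, a gene of retrotransposon origin that is needed for the placenta and encodes capsid-like proteins, lies at chr7:94656325-94669695 on the plus strand. *PEG10* was at 157, 151 and 127 TPM at t0, at 179, 170 and 157 TPM at 36h and at 218, 338 and 384 TPM at P1. It was higher at each step in all 3 differentiations, and the ranges of 36h and P1 did not overlap. From 36h to P1 the log2 fold change was 0.87 (SE 0.23, with edgeR giving an adjusted p of 0.023), below the 2-fold minimum and not called, and without r1 it was 1.10 (edgeR adjusted p = 0.0080) and was called. From P2 to P10 *PEG10* ran from 178 to 426 TPM. *SGCE*, which shares the start region of *PEG10*, was between 23.8 and 61.4 TPM.

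*PEG3*, which encodes a large zinc finger protein and lies at chr19:56810077-56840728 on the minus strand, stayed between 0.08 and 1.93 TPM. It was at 1.13, 0.17 and 0.74 TPM at t0, at 1.25, 0.42 and 0.75 TPM at P5 and at 0.73, 0.08 and 0.49 TPM at P10. Differentiation r1 was the highest in 12 of the 15 groups with 3 libraries and r2 the lowest in 10. At the 5 steps tested *PEG3* was not called by edgeR, where its smallest unadjusted p was 0.015 from P8 to P10, or by DESeq2 or limma.

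*NNAT* encodes neuronatin, a small proteolipid of the endoplasmic reticulum known from the developing brain, and lies at chr20:37521206-37523693 on the plus strand within *BLCAP*. *NNAT* was at 72, 74.2 and 71.8 TPM at t0, at 115, 263 and 354 TPM at P2 and at 185, 371 and 364 TPM at P3. It was highest at P3 in r2 and r3 and at P4 in r1 (197 TPM), 4.42-fold, 4.57-fold and 2.51-fold over t0 by normalized counts. *BLCAP*, the gene around it, ran from 17.3 to 63.8 TPM and may share reads with *NNAT*, since the strand setting of the counting is not known. By P8 *NNAT* was at 105, 44.3 and 119 TPM. From P5 to P8 it was lower in 3 of 3 differentiations, with log2 ratios of -0.83, -1.56 and -0.98 and ranges of TPM that did not overlap, and edgeR did not call it (unadjusted p = 0.0023, adjusted p = 0.12).

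In the fractions *MEG3* and *DLK1* did not pass the filter on low counts, which left 8 members. Between the MES and EPI fractions edgeR called 0 of 8 members at P5 and 0 of 8 at P8, and 0% of the 18885 genes tested at either passage. At an unadjusted p under 0.05 there were 4 and 2 members, and 4894 and 2261 genes (25.9% and 12% of those tested). As given above, the ranges of the P8 fractions overlapped in both marker sums. Within every differentiation MES had the higher crest and the lower epithelial sum. The part of this overlap in the values at P8 was not tested. DESeq2 called 674 genes at P5, among them *PLAGL1*, and 55 genes and 0 members at P8, and limma called 0 genes at both.

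*PLAGL1* was at 74.5, 57.5 and 42.2 TPM in the EPI fraction of P5 and at 35.5, 32.3 and 16.9 TPM in the MES fraction. The 2 fractions did not overlap, with a log2 difference of MES from EPI of -1.01 (SE 0.25, edgeR adjusted p = 0.045, DESeq2 -1.03 with an adjusted p of 0.0014), lower in 3 of 3 differentiations. At P8 it was at 121, 60.7 and 36.1 TPM in EPI and 97.2, 49.4 and 18.5 TPM in MES, lower in 3 of 3, with an edgeR adjusted p of 0.48. *PEG10* was higher in the MES fraction of P5, at 375, 522 and 599 TPM against 237, 348 and 407 TPM in EPI, with a log2 difference of 0.67 (SE 0.14, with edgeR giving an adjusted p of 0.029). *NNAT* was at 289, 174 and 272 TPM in MES and 161, 120 and 198 TPM in EPI at P5, a log2 difference of 0.65 (SE 0.14, with edgeR giving an adjusted p of 0.033). *MEST* was at 218, 310 and 313 TPM in MES and 178, 239 and 235 TPM in EPI at P5, a log2 difference of 0.45 (SE 0.10, with edgeR giving an adjusted p of 0.032). These 3 genes were higher in MES in 3 of 3 differentiations, with overlapping ranges and differences below the 2-fold minimum.

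**Figure D4:**
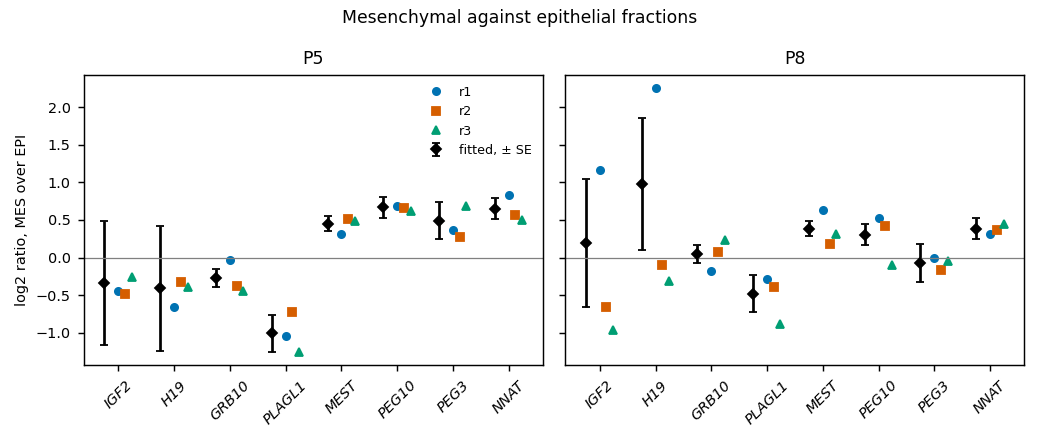
log2 ratio of the MES over the EPI fraction for the 8 members tested, at P5 and P8, as the fitted value with its standard error (diamonds) and as the ratio of normalized counts (each plus 1) within each differentiation (r1, r2 and r3). *PLAGL1* is below 0 in all 6 pairs, and *NNAT* and *MEST* are above 0 in all 6.

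*IGF2* and *H19* at P8 differed in direction by differentiation. *H19* was at 33.5, 18.3 and 4.72 TPM in MES and at 5.87, 17.9 and 6.56 TPM in EPI, and *IGF2* at 41.1, 19.7 and 2.60 TPM in MES and at 18.7, 29.1 and 5.67 TPM in EPI. Both were higher in MES in r1 and lower in MES in r2 and r3 by normalized counts. At P5 the log2 ratios of *IGF2* were -0.44, -0.48 and -0.26 and those of *H19* -0.66, -0.33 and -0.39. *GRB10* ran from 51.4 to 98.0 TPM over the 12 fraction libraries and *PEG3* from 0.42 to 1.82 TPM. For no member was a difference between passages in the contrast of MES and EPI called (edgeR interaction, 0 of 8, 0% of all genes, 0 members and 6.1% of all genes at an unadjusted p under 0.05, and 0 members by DESeq2 and limma).

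Between passages, 1 of 8 members was called in the MES fraction, against 0.699% of all genes, and edgeR called 0 of 8 in the EPI fraction, against 0.259%, with 3 members and 31.3% of all genes at an unadjusted p under 0.05 and 0 members called by DESeq2 and limma. *NNAT* fell from 289, 174 and 272 TPM in MES at P5 to 112, 60.1 and 153 TPM at P8, a log2 fold change of -1.27 (SE 0.14, with edgeR giving an adjusted p of 0.0057), 2.41-fold. The same gene went from 161, 120 and 198 TPM to 91.8, 44.3 and 110 TPM in EPI, with a log2 difference of -1.0 (SE 0.14, with edgeR giving an adjusted p of 0.013) that was not called. *MEST* went the other way, from 218, 310 and 313 TPM to 444, 489 and 478 TPM in MES and from 178, 239 and 235 TPM to 290, 402 and 368 TPM in EPI, with no overlap in either. Its log2 differences were 0.72 (SE 0.10, with edgeR giving an adjusted p of 0.0076) and 0.79 (SE 0.10, with edgeR giving an adjusted p of 0.0091), each higher in 3 of 3 differentiations and below the 2-fold minimum. *GRB10* was lower in the EPI fraction of P8 than of P5 in 3 of 3 differentiations, with a log2 difference of -0.60 (SE 0.12, with edgeR giving an adjusted p of 0.029), and *PEG10* was lower in the MES fraction, at -0.53 (SE 0.14, with edgeR giving an adjusted p of 0.044). The call for *NNAT* was lost without the block (edgeR, -1.20 with an adjusted p of 0.11) and with any 1 differentiation left out. Between the EPI fractions of P5 and P8 the neural crest and mesenchymal sum went from 83.3, 164 and 284 TPM to 109, 451 and 803 TPM in r1, r2 and r3, and between the MES fractions from 533, 488 and 645 TPM to 327, 520 and 1127 TPM. The sum over 4 neuronal markers (*DCX*, *ELAVL3*, *ELAVL4* and *STMN2*) went from 4.27, 10.1 and 2.72 TPM to 3.41, 69.4 and 51.8 TPM in EPI and from 4.88, 20.4 and 2.14 TPM to 3.82, 67.6 and 28.0 TPM in MES, lower in r1 and higher in r2 and r3, whereas *NNAT* was lower in all 3. The part of either marker list in these values was not tested.

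Further genes of the same biology were counted from 3 lists. Of 39 other imprinted genes, 35 were tested in whole cultures, and edgeR called 2 from t0 to 36h, both lower, where 2.71% of all genes were called, 1 from P1 to P5, also lower, where 4.00% were, and 0 at the other steps. At those other steps between 0.00920% and 1.19% of all genes were called. In the fractions 32 were tested and edgeR called 0, where between 0% and 0.699% of all genes were called. *MAGEL2* went from a mean of 3.08 ± 0.518 TPM (SD, n = 3) at t0 to 0.653 ± 0.666 TPM at 36h (log2 fold change -2.22 with an SE of 0.52, edgeR adjusted p = 0.0055), and *ATP10A* from 2.41 ± 0.435 to 0.713 ± 0.230 TPM (-2.00 with an SE of 0.44, edgeR adjusted p = 0.0041). *INPP5F* went from 79.8 ± 4.95 TPM at P1 to 36.9 ± 2.79 TPM at P5 (-1.03 with an SE of 0.17, edgeR adjusted p = 0.00026). The list's median log2 fold change ran from -0.14 (36h to P1) to 0.27 (P5 to P8 in EPI) over the contrasts.

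Of 22 genes of the IGF pathway, which sends the signal of *IGF2* on or binds the ligand, 20 were tested. *INSR*, the insulin receptor, fell from 14.5 ± 0.481 TPM (SD, n = 3) at t0 to 7.03 ± 0.290 TPM at 36h, a log2 fold change of -1.09 (SE 0.27, with edgeR giving an adjusted p of 0.0080). *IRS4*, an adaptor of these receptors, fell from between 0.63 and 11.1 TPM at P1 to between 0.06 and 0.10 TPM at P5, a log2 fold change of -5.33 (SE 1.34, with edgeR giving an adjusted p of 0.0077). No other gene of this list was called by edgeR in any contrast, and the list's median log2 fold change was -0.65 from t0 to 36h, -0.16 from 36h to P1, 0.39 from P1 to P5, 0.24 from P5 to P8 and 0.12 from P8 to P10, against -0.01 to 0.00 for all genes. In the fractions it was -0.02 and 0.37 for MES against EPI at P5 and P8, and 0.30 and 0.43 for P8 against P5 in EPI and MES. Over the 10 contrasts, 2 of 200 pairs of gene and contrast were called by edgeR, 17 by DESeq2 and 2 by limma, with 72 at an unadjusted p under 0.05 in edgeR. Over all genes and the same contrasts, edgeR called 0.945% of 203175 pairs, DESeq2 2.59% and limma 1.04%, and 21.7% were at an unadjusted p under 0.05 in edgeR. For the other imprinted genes the counts were 3, 7 and 2 of 335 pairs, with 108 at an unadjusted p under 0.05 in edgeR. Of 7 genes that maintain imprints, such as *ZFP57*, *TRIM28* and *DNMT1*, edgeR, DESeq2 and limma called 0 in 65 pairs, with 19 at an unadjusted p under 0.05 in edgeR.

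The genes most like each member, by Pearson r of the mean log2 normalized count over the 16 groups, were sought among 13297 genes. They are named as a description, since the groups share differentiations. For *IGF2* they were *AC132217.1* (r = 0.981), which lies within *IGF2* at chr11:2129121-2129964 on the same strand and may share its reads, *ARNT2* (0.977) and *HOXC8* (0.972). For *PLAGL1* they were *SMYD2* (0.978), *MLLT3* (0.971) and *HOXA3* (0.970), and for *NNAT* *SPOCK3* (0.963), *RHOU* (0.923) and *TRDC* (0.915). For *MEST* they were *NUDT4* and its near-identical copies *NUDT4B* and *NUDT4P2* (0.894 each). For *DLK1* they were *KNDC1*, *YBX3* and *CCHCR1* (0.973 each), for *PEG3* *GPRASP2* (0.937), *TCEAL7* (0.914) and *RPRM* (0.872), and for *PEG10* *NID2* (0.920), *DPH3* (0.898) and *MTG1* (0.885). For *H19* they were *IGFN1* (0.868), *LRMDA* (0.866) and *CUL4B* (0.847), and for *GRB10* *AGGF1* (0.843), *ZNRD1* (0.825) and *TCF20* (0.819). *MEG3*, near 0 counts in most groups, was most like *CCHCR1* (0.974), *MTMR14* (0.971) and *ATP5PO* (0.969).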

How the data were processed

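Per the labels, polyA mRNA of 47 H9 cultures or fractions was sequenced as single-end reads. The submitters' processing notes name cutadapt 1.16, STAR 2.5.2b, RSEM 1.3.0 and GRCh38, with no role or order. The authors deposited, per gene and library, RSEM expected counts (estimated counts, of which 9.33% were not whole), TPM values and transcript length, a mean in bases weighted by isoform share. Strand of the counting is not given in the sources used here, so members may share reads with genes that overlap them (*IGF2-AS*, *MESTIT1*, *COPG2* and *BLCAP*).

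Expected counts were rounded to whole numbers and tested with edgeR 4.0.16 (R 4.3.3; TMM factors, filterByExpr, quasi-likelihood test, replicate number as a block, Benjamini-Hochberg adjustment) in a fit of the 35 whole cultures (21750 genes) and a fit of the 12 fractions (18885 genes). The standard error was taken as the size of the log2 fold change over the square root of F. The number marks an experiment in the series' design. Deviations of same-numbered libraries from their group means correlated at a mean of 0.14 in whole cultures (over 0.1 in 84 of 187 pairs) and 0.42 in fractions (18 of 18), against -0.07 and -0.21 for other numbers. Nothing says that differentiations began from separate stocks. With the block, p-values measure the spread left after group and replicate number, and successive samples of a culture were taken as independent. They cover these cultures only.

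Symbols came from GENCODE 29 (57447 of 58051 identifiers matched), and promoter windows and miRNAs from RefSeq. Alternatives were DESeq2 1.42.0 (also its size factors in edgeR), limma 3.58.1 on log2(TPM + 1) and log2(TPM + 0.1), no block, no filter, no minimum mean, an FDR of 5%, all 47 libraries in a fit, and each differentiation left out. The tests were tried on simulated counts of independent libraries with a fixed spread and no culture effect. That trial does not measure how they perform in these data. All members are named, and companion genes where called, with *ZFP57*, *TRIM28* and *DNMT1* named only as examples of their list. Named as most alike are the 3 genes of highest Pearson r among those that averaged 100 or more normalized counts. Members and lists were chosen with earlier results of these data known. Expected counts limit precision at low levels, and 3 counts were taken as the floor of detection.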

Additional observations from a re-analysis of the deposited data

How the results depend on the processing

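Over 21 pairs of member and contrast and 252 alternative values, 222 kept direction and side of the threshold, 19 were no longer called, 10 became called and 1 turned sign, *IGF2* from P8 to P10, which ran from -3.16 without replicate 1 to 0.28 without replicate 2 (-0.72 with all). The number of members called from 36h to P1, 2 as reported, was 1 without the replicate block and 1 with limma at either pseudocount. It was 3 with DESeq2 and 3 at an FDR of 5%. Over all genes the share called at this step was 1.19% as reported and 0.906% without the block. It was 1.70% and 1.49% with limma at pseudocounts of 1 and 0.1, 2.64% with DESeq2 and 2.91% at an FDR of 5%. The number from P1 to P5, also 2, was 1 with limma at either pseudocount. There 3.54% and 4.19% of all genes were called, against 4.00% as reported. In the P8 against P5 MES contrast the 1 call became 0 without the replicate block and 0 in a fit of all 47 libraries. The share over all genes went from 0.699% to 0.00530% and 0.0546%. In the P5 MES against EPI contrast 0 became 1 with DESeq2 and 1 at an FDR of 5%, where the share over all genes went from 0% to 3.57% and 2.66%. In the P8 against P5 EPI contrast 0 became 1 with no filter on low counts, where the share went from 0.259% to 0.456%. The replicate block changed no other count of members called. With each differentiation left out in turn, the counts ran from 1 to 2 (36h against t0), 0 to 5 (P1 against 36h), 0 to 1 (P5 against P1), 0 to 1 (P10 against P8) and 0 to 0 (P8 against P5 MES). Without replicates 1, 2 and 3 the share over all genes was 3.96%, 0.368% and 0.436% for 36h against t0. It was 4.25%, 0.00888% and 0.0568% for P1 against 36h, and 5.48%, 0.466% and 0.507% for P5 against P1. For P10 against P8 it was 4.08%, 0% and 0%. For P8 against P5 MES, 219 of 18833 genes were called without replicate 1, and 0 without replicate 2 or 3. Fewer libraries were fitted with a differentiation left out. The cause of the other changes was not tested. Levels of 3 counts or fewer, which include *MEG3* in 38 libraries and *DLK1* in 23, are below what this depth resolves.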
